A study of Mus musculus with 137 samples.

Results

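The embryos described here are 14 of the 137 in the series: they are labelled as injected with NR5A2 mRNA in the presence of the inhibitor SR1848, yet their libraries held little of the GFP sequence that most embryos with that label carried. The members were chosen by a measured value. They have the label SR1848_NR5A2OE and under 100 CPM (counts of an entry over the library's total, times 1000000) over both GFP entries of the deposited table, outside 11 left-out libraries with that label. Of the 14, 9 come from experiment 1 and 5 from experiment 2. They were set against 40 embryos labelled SR1848 (16 and 24), and, where stated, against the 42 other embryos of their own label at or above the limit (17 and 25) and 16 DMSO embryos of experiment 1. The question was whether the GFP-low embryos are the ones in which 2-cell transcripts returned.

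All embryos were mouse, of the B6129F1 cross, collected as zygotes 5 h after fertilization, cultured in KSOM in wet chambers without an oil cover, and sequenced singly at the 2-cell stage by SmartSeq2 with oligo-dT priming. From 6 h after fertilization the medium held 10 µM SR1848, which inhibits the nuclear receptor NR5A2, or its solvent, 0.1% DMSO. The SR1848_NR5A2OE embryos had SR1848 as well, and NR5A2 mRNA injected at 500 ng/µl. No group is labelled as injected with anything but NR5A2 mRNA, so the injection and the foreign mRNA cannot be told apart from NR5A2. The labels do not record which embryos share parents, so a p here measures only how embryos spread. An embryo is one bulk library here, and fewer cells cannot be told apart from less RNA per cell.

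In the mouse, the fertilized egg first runs on mRNA stored by the oocyte. The embryo's own genome is switched on in a minor wave in the zygote and a major wave in the 2-cell embryo, while maternal mRNA is degraded. The 2-cell stage has transcripts of its own, many of them driven by or linked to the endogenous retrovirus MERVL and to the DUX factor: the Zscan4 cluster, Tdpoz, Trim43, Usp17-like and Eif1a-like families, Zfp352 and Tcstv genes. The major wave also brings up genes for ribosomes, splicing, the proteasome and DNA replication. NR5A2 is an orphan nuclear receptor that binds DNA as a monomer at sites with the core CAAGGNCA, and is known for its part in pluripotency and in liver and pancreas.

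The promoters of 4 genes that were higher in the GFP-low embryos than with SR1848 are shown because they hold that core and belong to 2-cell families. Each sequence is the 250 bases before the annotated start in RefSeq on GRCm38.p6, written 5′ to 3′ on the gene's own strand. Capitals mark the match to CAAGGNCA or, read on the other strand, TGNCCTTG. Zscan4c lies at chr7:11005495-11005744 on the plus strand, Zscan4d at chr7:11166149-11166398 on the minus strand, Usp17lc at chr7:103416446-103416695 on the plus strand and Ubtfl1 at chr9:18404168-18404417 on the plus strand.
Zscan4c: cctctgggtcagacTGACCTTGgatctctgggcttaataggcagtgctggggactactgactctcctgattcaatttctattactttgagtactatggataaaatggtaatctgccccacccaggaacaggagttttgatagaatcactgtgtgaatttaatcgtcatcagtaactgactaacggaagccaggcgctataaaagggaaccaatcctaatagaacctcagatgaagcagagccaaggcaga
Zscan4d: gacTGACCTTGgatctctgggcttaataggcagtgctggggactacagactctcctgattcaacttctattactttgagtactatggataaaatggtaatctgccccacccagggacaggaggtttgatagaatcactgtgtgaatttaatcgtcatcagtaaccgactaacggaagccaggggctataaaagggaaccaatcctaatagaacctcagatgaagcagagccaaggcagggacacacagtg
Usp17lc: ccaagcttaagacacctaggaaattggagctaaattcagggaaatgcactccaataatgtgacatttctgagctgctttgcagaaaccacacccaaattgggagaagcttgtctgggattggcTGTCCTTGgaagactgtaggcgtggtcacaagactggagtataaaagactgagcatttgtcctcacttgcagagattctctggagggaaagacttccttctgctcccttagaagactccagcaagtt
Ubtfl1: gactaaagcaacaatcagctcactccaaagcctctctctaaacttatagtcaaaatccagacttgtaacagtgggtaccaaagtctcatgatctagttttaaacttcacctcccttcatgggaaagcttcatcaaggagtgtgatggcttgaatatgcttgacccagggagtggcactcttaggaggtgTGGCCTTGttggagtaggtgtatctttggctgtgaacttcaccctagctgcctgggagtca
The matches begin 236, 247, 127 and 61 bases before the start. Of 32851 RefSeq promoters 5.53% held a match, and of the 12029 promoters of genes tested 4.23% did. The share was 4.61% among promoters of genes called higher and 4.62% among those called lower. Among the named genes that rose, 10 of 69 promoters (14.5%) held one, as did 11 of 50 (22.0%) of the 2-cell list, whose copies share sequence. All 10 hold 1 match each, and the 4 shown were picked among them after their values were seen, as members of 2-cell families. A match is a run of letters, not a measured binding site.

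The 14 embryos carried almost none of the GFP sequence found in the other embryos of their label. GFP entries gave a median of 5.94 CPM (0 to 70.8) in the GFP-low embryos, 4139 CPM (1426 to 10267) in the embryos above the limit and 0.134 CPM (0 to 3.23) in those with SR1848 alone. No embryo lay near the limit: the nearest below it, embryo 13 of experiment 2, had 70.8 CPM, and the nearest above it, embryo 35 of experiment 2, had 1426 CPM. In 7 of the 14 the GFP level was within the range of embryos that were not injected. These values chose the members and are given without a test.

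Nr5a2, the gene whose mRNA was injected, parted in the same way. It had a median of 17.4 CPM (5.37 to 97.0) in GFP-low embryos and 3526 CPM (1691 to 8463) above the GFP limit, against 13.2 CPM (3.90 to 29.5) with SR1848 and 115 CPM (93.3 to 189) with DMSO. Of the 14, 1 reached the DMSO range, embryo 13 of experiment 2, and 5 were above the highest SR1848 embryo. Hist2h2be, a histone H2B gene looked at after its values were seen, had 2.90 CPM (0 to 19.1) in GFP-low embryos, 1559.9 CPM (527 to 4036) above the GFP limit and 0 CPM (0 to 3.73) with SR1848. Its groups on either side of the limit did not overlap, and it is described without a test because it follows the rule. A separate entry of the table, named as an Nr5a2 gene sequence, did not part at the limit: it had 139.6 CPM (21.2 to 306), 124 CPM (51.1 to 303) and 35.7 CPM (13.9 to 86.0) in the same order. The B2 SINE entry, a short interspersed repeat, had 31.6 CPM (0.845 to 144), 51.3 CPM (9.17 to 218) and 7.74 CPM (0.917 to 21.2), with 11 of 14 GFP-low embryos above the highest SR1848 embryo.

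**Figure D1:**
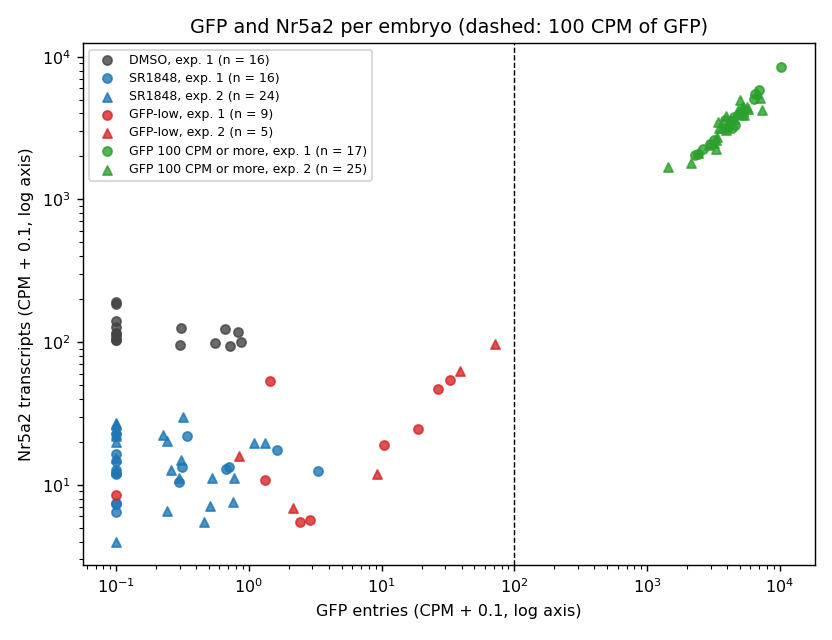
GFP entries (x) and Nr5a2 transcripts (y) per embryo in CPM plus 0.1 on log axes, 1 point per embryo, circles for experiment 1 and triangles for experiment 2; the dashed line is the limit of 100 CPM. The 14 GFP-low embryos (0 to 70.8 CPM of GFP) lie with the SR1848 embryos or between them and the 42 embryos above the limit (1426 to 10267 CPM).

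The libraries were of like depth, and 1 of the 14 stood apart. Totals ran from 3759280 to 6473630 counts in the GFP-low embryos and from 3762220 to 7888072 with SR1848. Embryo 2 of experiment 1 had 8356 detected genes against 15056 to 17483 in the other 13, no count from the Tdpoz, Trim43, Usp17-like and Eif1a-like families, and 0.0171% of counts from ribosomal proteins. It had 19.7% of counts from mitochondrially encoded genes and 11.4% from maternal transcripts. The counts that lead each comparison are given with this embryo and without it, as are list counts against SR1848 that moved by more than 1.5 times without it. In experiment 2, libraries 1 to 8 labelled DMSO and 1 to 8 labelled SR1848_NR5A2OE go against their labels in GFP and Nr5a2, and neither set was used. Of 5 markers of the oocyte, Gdf9, Bmp15, Zp3 and Nlrp5 had counts in 14 of 14 embryos and Mos in 12, and 2-cell markers (Zscan4c, Zscan4d, Zfp352, Tdpoz4 and Tcstv1) in 13 or 14.

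Against SR1848 alone, the GFP-low embryos held more mRNA of 2-cell families and of genes for making ribosomes, and less of oocyte transcripts. Of 78 tested members of the 2-cell list, 68 rose and 1 fell, with a median change of 2.53 log2. Of 12787 genes tested with edgeR (quasi-likelihood, p adjusted by Benjamini and Hochberg's method), 28.1% were called higher (3597) and 21.4% lower (2742), and the median change of all genes was 0.00 log2. Without embryo 2 of experiment 1 the calls were 29.4% higher and 24.6% lower of 12770, and 68 members of the 2-cell list rose and 4 fell. The direction of the balance depends on scaling: relative log expression moved the median of all genes to 0.25 log2 with 72.4% of the calls higher, and scaling to the maternal list moved it to 0.59 with 88.9% higher, against 56.7% as reported.

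Counts from the 2-cell list made up 1.04% (0.536 to 1.83) of each GFP-low library, as median, lowest and highest, and 0.352% (0.192 to 0.969) with SR1848. All 14 embryos were above the SR1848 median and 8 were above its highest embryo. The DMSO embryos of experiment 1 had 0.994% (0.715 to 1.18). The embryos above the GFP limit had 0.227% (0.123 to 1.67), and 8 of those 42 were also above the highest SR1848 embryo. High shares of 2-cell transcripts were therefore found on both sides of the limit, in 8 of 14 and in 8 of 42 embryos. The summed share hides the families, which did not move alike.

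**Figure D2:**
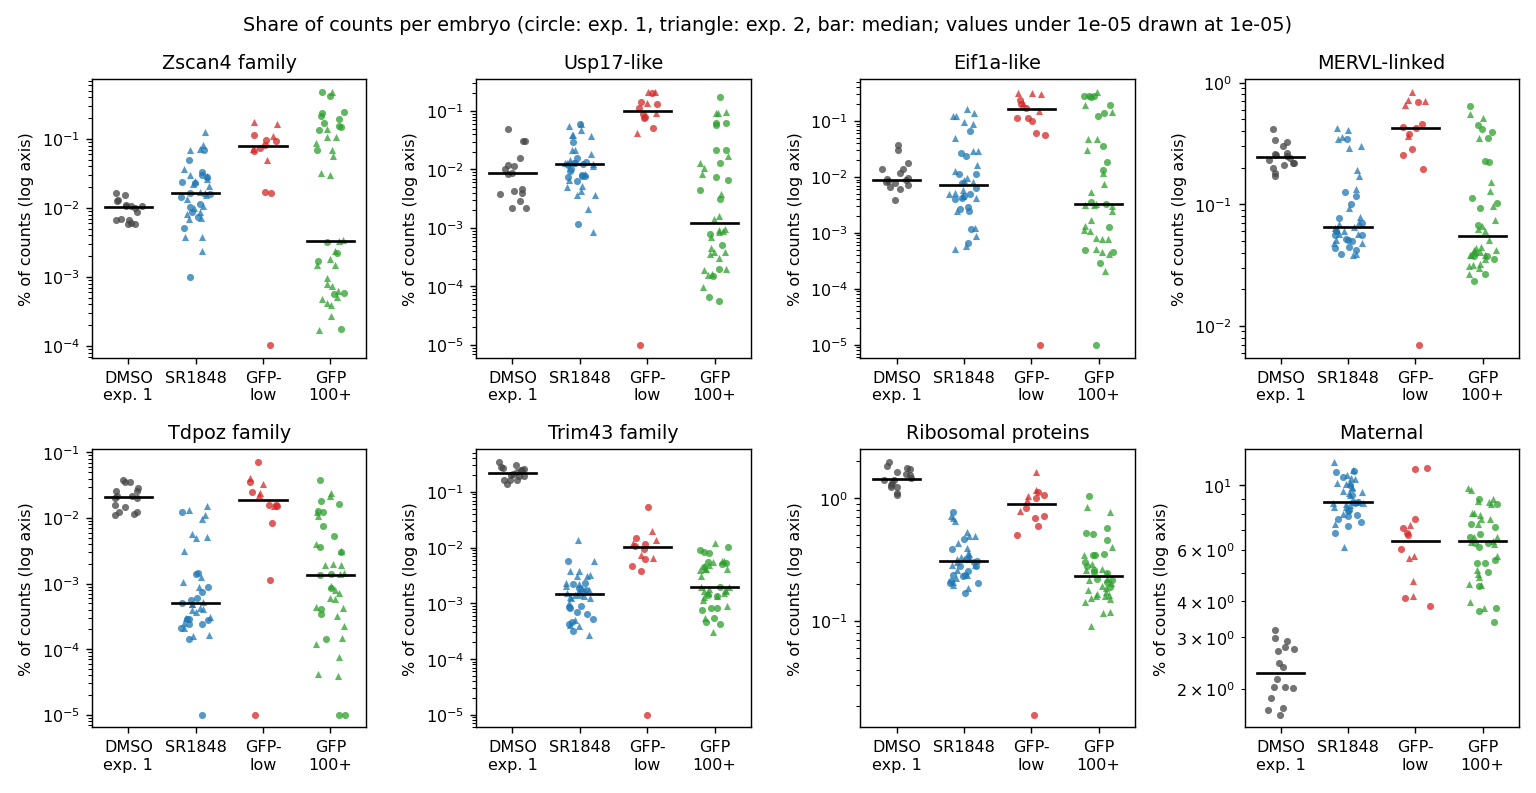
Share of counts (%, log axis) from 8 gene lists per embryo, 1 point per embryo and a bar at the group median, in DMSO embryos of experiment 1, SR1848, GFP-low and embryos at or above 100 CPM of GFP. The GFP-low embryos had the highest median of the 4 groups for Zscan4, Usp17-like, Eif1a-like and MERVL-linked genes, and lay between SR1848 and DMSO for Tdpoz, Trim43, ribosomal proteins and maternal transcripts; embryo 2 of experiment 1 is the lowest GFP-low point in every panel but the maternal one.

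The Zscan4 cluster on chromosome 7 encodes zinc finger proteins with a SCAN domain that are pulsed in 2-cell embryos and act in telomere maintenance. Zscan4d (ENSMUSG00000090714, chromosome 7, 11161374 to 11166159) had 235 CPM (0.619 to 647) in GFP-low embryos and 16.7 CPM (0.554 to 217) with SR1848. Of the 14 GFP-low embryos 7 lay above the highest SR1848 embryo, and the others overlapped its range. edgeR's quasi-likelihood test gave Zscan4d 2.96 ± 0.43 log2 (SE; adjusted p = 9.33e-08). Zscan4c rose by 2.55 log2, Zscan4a by 1.92 and Zscan4f by 0.94. Zscan4b (1.43 log2, edgeR adjusted p = 0.109) and Zscan4e (1.02 log2, edgeR adjusted p = 0.172) did not pass. These copies are near-identical, and kallisto divides reads between them, so each is an estimate. The cluster as a whole made up 0.0781% (0.000100 to 0.177) of counts, against 0.0165% (0.000990 to 0.127) with SR1848 and a median of 0.0104% with DMSO. Only 2 of the 14 GFP-low embryos were above the highest SR1848 embryo in this share. Of the 42 embryos above the GFP limit 12 were, with up to 0.482%.

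All 5 Usp17-like genes, which encode deubiquitinating enzymes, rose. Usp17lc (ENSMUSG00000058976, chromosome 7, 103415072 to 103419880) had 251 CPM (0 to 1219) against 30.8 CPM (0.650 to 225) and a change of 3.08 ± 0.41 log2 (SE; adjusted p = 1.29e-08), and Usp17lb had 582 CPM (0 to 1596) against 50.8 CPM (1.03 to 429) and 2.80 log2. For Usp17lc 7 of 14 GFP-low embryos were above the SR1848 range, for Usp17lb 9 of 14, and embryo 2 of experiment 1 was at 0 for both. The family's share was 0.101% (0 to 0.213), and 11 of the 14 were above the highest SR1848 embryo. All 8 tested Eif1a-like genes, relatives of the translation initiation factor eIF1A clustered on chromosome 12, rose as well. Gm5662 had 370.1 CPM (0 to 729.9) against 5.56 CPM (0 to 204), a change of 4.14 ± 0.65 log2 (SE; adjusted p = 4.78e-07). Their summed share had a median of 0.162% against 0.00715%, and 7 of 14 embryos were above the SR1848 range.

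Among the genes linked to MERVL, 29 of 30 rose and none fell. Zfp352, a zinc finger gene used as a mark of 2-cell-like cells, had 285 CPM (0 to 615) against 29.7 CPM (3.23 to 308), and rose by 2.61 log2 ± 0.44 (SE; edgeR adjusted p = 2.15e-06). Pramef25 had 81.8 CPM (0 to 454) against 6.76 CPM (0 to 87.4) and a change of 3.93 ± 0.52 log2 (SE; adjusted p = 1.76e-08). Ubtfl1, a relative of the nucleolar factor UBTF, had 39.9 CPM (0 to 120.4) against 3.15 CPM (1.16 to 26.5), and 10 of 14 embryos lay above the SR1848 range. Tcstv1 (1.54 log2) and Tcstv3 (1.90 log2) rose by less. The member that did not pass was Duxf3, the DUX factor itself, with 6.07 CPM (0.0960 to 8.93) against 2.42 CPM (0 to 58.6) and -0.50 log2 (edgeR adjusted p = 0.443).

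The Tdpoz and Trim43 genes of the major wave rose from near 0. Tdpoz5, of a family of speckle-type POZ proteins, had 69.5 CPM (0 to 289.9) against 1.99 CPM (0 to 57.3), with 9 of 14 above the SR1848 range, and a change of 3.70 ± 0.59 log2 (SE; adjusted p = 6.87e-07). Tdpoz1 (3.79 log2) and Tdpoz4 (3.83 log2) rose too, making 4 of 4 tested with Tdpoz3. Trim43b (ENSMUSG00000079162, chromosome 9, 89084624 to 89092835), of a family of RING finger proteins, had 58.6 CPM (0 to 201) against 7.28 CPM (0.505 to 71.7) and rose by 2.61 log2 ± 0.40 (SE; edgeR adjusted p = 3.45e-07). Only 1 of the 14 was above the SR1848 range for Trim43b, and 10 were for Trim43c. Both stayed far from the DMSO level, 856 CPM (512 to 1427) and 624 CPM (446 to 1049.9).

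Of 22 genes of the minor wave and immediate early response, 15 rose and 1 fell, and without embryo 2 of experiment 1 these were 15 and 4. With all 14 embryos, 28.1% of all genes were called higher and 21.4% lower. Dppa4, which with its partner Dppa2 binds the Dux promoter, had 26.1 CPM (0.383 to 167) against 3.07 CPM (0 to 22.2) and a change of 3.13 ± 0.45 log2 (SE; adjusted p = 9.83e-08). Dppa2 was the member that fell, from 121 to 70.2 CPM as medians (-0.80 log2, edgeR adjusted p = 0.000119). Btg2, an antiproliferative gene, rose by 2.45 log2, Klf5 by 2.39 and Klf4 by 1.23, both Krüppel-like factors. Hsp90aa1, a chaperone, rose by 1.26 log2, and by 0.84 without embryo 2 of experiment 1. The Obox genes, homeobox factors of the oocyte and 2-cell embryo, split evenly. Obox6 had a median of 180.3 CPM against 2.19, with 11 of 14 embryos above the SR1848 range, and rose by 4.07 log2 ± 0.65 (SE; edgeR adjusted p = 8.31e-07), and Obox3, Obox8 and Crxos rose with it. Obox1 (-0.89 log2), Obox2 (-0.56), Obox5 (-0.97) and Obox7 (-0.94), whose mRNA is stored in the oocyte, fell. With relative log expression 3 of these 4 fell, and with maternal scaling 2.

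Of 23 tested genes of the first lineages, 12 rose and 2 fell, beside 28.1% of all genes called higher and 21.4% lower. Nanog, a factor of the pluripotent epiblast, had 15.9 CPM (0 to 91.6) against 4.55 CPM (0.620 to 17.3) and rose by 1.94 log2 ± 0.35 (SE; edgeR adjusted p = 6.97e-06). Tbx3, a T-box factor, had 68.5 CPM (0.383 to 130.0) against 10.5 CPM (0.686 to 80.2), and the keratin Krt7 had 34.3 CPM (0 to 133) against 9.36 CPM (2.52 to 33.7). Sox2 rose from a median of 0.290 to 4.80 CPM, which stays low. Pou5f1, which encodes OCT4 and is present as maternal mRNA, fell from 138 CPM (64.4 to 364) to 105 CPM (44.0 to 207), a change of -1.01 ± 0.15 log2 (SE; adjusted p = 1.86e-07). Tfcp2l1 was the other member that fell (-0.79 log2).

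Genes for making ribosomes were higher, beside 28.1% of all genes called higher and 21.4% lower. Of 108 tested genes of nucleolus and ribosome biogenesis 78 rose and 1 (Rrp1b) fell, with a median of 1.51 log2. Without embryo 2 of experiment 1, 79 of 107 rose and 4 fell. Their summed share was 0.761% (0.374 to 1.72) in GFP-low embryos and 0.351% (0.273 to 0.531) with SR1848, and 12 of 14 were above the highest SR1848 embryo. Gnl3, which encodes nucleostemin, had 87.4 CPM (5.36 to 139) against 16.7 CPM (6.62 to 38.0). All 13 embryos other than embryo 2 of experiment 1 were above the SR1848 range for Gnl3, and the change was 2.26 ± 0.19 log2 (SE; adjusted p = 7.07e-14). Gnl3 is ENSMUSG00000042354, on chromosome 14 from 31012433 to 31019152. Nip7 (1.97 log2) and Gtpbp4 (1.89 log2), both factors of the large subunit, rose in 12 of 14 above that range. Of 82 ribosomal protein genes 76 rose and 1, Rpl17, fell. Rpl41, for the smallest protein of the ribosome, had 978 CPM (5.55 to 1758) against 111 CPM (46.9 to 662) and a change of 2.62 ± 0.29 log2 (SE; adjusted p = 2.16e-10). Many ribosomal protein genes have pseudogenes that share reads with them, so single genes are estimates.

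Other housekeeping groups had more rises than falls, beside 28.1% of all genes called higher and 21.4% lower. The summed share differed little for RNA polymerase II (median 0.539% against 0.525%, 7 of 14 above the SR1848 median). It also differed little for the proteasome (0.195% against 0.184%, 9 of 14 above). For the spliceosome it was 0.307% against 0.199%, and for the cell cycle 0.864% against 0.654%. In the spliceosome 34 of 56 rose and 5 fell (median 0.77 log2), and 32 and 3 without embryo 2 of experiment 1. Prpf8, the core scaffold of the spliceosome, had 119 CPM (0 to 220.0) against 21.3 CPM (3.44 to 55.8), above the SR1848 range in 13 of 14. In RNA polymerase II and elongation 26 of 59 rose and 9 fell (median 0.34). Polr2l, a subunit shared by the nuclear RNA polymerases, rose by 2.11 log2, and Taf6, a TFIID subunit, fell (-1.19 log2, 8 of 14 below the SR1848 range). In the proteasome 18 of 38 rose and 6 fell (median 0.55), led by the lid subunit Psmd7 with 211 CPM (39.1 to 444) against 24.1 CPM (7.09 to 208). In DNA replication and the cell cycle 29 of 58 rose and 11 fell. Mcm4, part of the replicative helicase, rose by 2.20 log2 ± 0.23 (SE; edgeR adjusted p = 4.74e-11), Ccne1, which encodes cyclin E1, by 2.50, and Gins4, another part of that helicase, fell (-1.46 log2). In purine, serine and folate synthesis 14 of 28 rose and 3 fell, among them Impdh2, the rate-limiting enzyme of guanine nucleotide synthesis (2.27 log2).

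Of 59 nuclear genes of oxidative phosphorylation 28 rose and 5 fell, and of 13 mitochondrially encoded mRNAs 11 rose and none fell. Among all genes 28.1% were called higher and 21.4% lower. Ndufa7, of respiratory complex I, had 36.3 CPM (0 to 93.7) against 3.56 CPM (0 to 36.8). The mRNA mt-Cytb, for cytochrome b, had 33252 CPM (17995 to 47062) against 16208 CPM (8764 to 22972), above the SR1848 range in 13 of 14, and changed by 1.03 ± 0.14 log2 (SE; adjusted p = 4.23e-08). The mitochondrial share of counts was 11.0% (5.10 to 19.7) in the GFP-low embryos and 7.39% (3.90 to 11.6) with SR1848. With the mitochondrially encoded, GFP, Nr5a2 and SINE entries left out of the totals, the median share of 2-cell transcripts was 1.15% in GFP-low embryos and 0.374% with SR1848, and 9 of 14 were above the highest SR1848 embryo. For ribosome biogenesis the medians were then 0.874% and 0.375%, with 12 of 14 above, and for maternal transcripts 7.30% and 9.70%.

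Most genes on the list of heat shock and unfolded protein were higher. Of 36 tested, 26 rose, 2 (Dnajb1 and Txnrd1) fell and 8 did not pass (median 1.41 log2). Hspa5, the endoplasmic reticulum chaperone BiP, had 1261 CPM (12.3 to 2135) against 189.8 CPM (91.1 to 967) and a change of 2.16 ± 0.27 log2 (SE; adjusted p = 2.64e-09). Mt2, a metallothionein, had 423 CPM (0 to 1066) against 31.0 CPM (3.71 to 226), and 13 of 14 were above the SR1848 range. Among 20 targets of p53, 13 rose and 0 fell, and 13 and 1 without embryo 2 of experiment 1. Cdkn1a, the p21 inhibitor of cyclin-dependent kinases, had 86.0 CPM (3.09 to 146) against 18.4 CPM (7.49 to 73.1). Genes that sense foreign RNA did not move one way, with 7 of 18 higher and 6 lower, and 9 and 2 with relative log expression. Irf1, an interferon regulatory factor, rose by 2.25 log2 and Irf9 by 2.99. The summed share of this list had a median of 0.0401% against 0.0342% with SR1848. Of the 14 embryos 12 were above the SR1848 median and 0 above its highest embryo. Among orphan and related nuclear receptors 2 of 17 rose (Nr2c2 and Rarg) and 4 fell (Nr2c1, Nr1d1, Rarb and Rora). With relative log expression 6 rose and 3 fell, so the balance of this list turns with the scaling. That scaling also moved the genes as a whole, with 4502 of 12787 called higher and 1714 lower. In 28 tested histone genes 6 rose and 1 (Hist1h2bh) fell. Beside the 28.1% of all genes called higher and 21.4% called lower, neither the nuclear receptors nor the histones had a larger share of rises than all genes.

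Maternal transcripts were lower. Of 79 tested, 42 fell and 3 (Zp3, Padi6 and Slbp) rose, with a median of -0.51 log2. With relative log expression 30 fell and 7 rose. Scaled to this list itself, 20 fell and 28 rose, so the direction of the list as a whole cannot be separated from the scaling. Bmp15, an oocyte growth factor, had 687 CPM (221 to 2069) against 2064 CPM (351 to 3937) and a change of -1.54 ± 0.21 log2 (SE; adjusted p = 2.49e-08). Trim61 had 1525 CPM (663 to 2889) against 3375 CPM (2361 to 5685), below the SR1848 range in 12 of 14, and Npm2, an oocyte histone chaperone, had 106 CPM (37.3 to 189.8) against 235 CPM (109 to 395). Izumo1r, the egg receptor JUNO, fell by 1.61 log2. Maternal transcripts made up 6.41% (3.84 to 11.5) of counts against 8.76% (6.12 to 12.1), and every GFP-low embryo was above the highest DMSO embryo. Of 37 genes for maternal mRNA decay 14 fell and 7 rose, led by the decapping factor Dcp1a (-1.31 log2, 12 of 14 below the SR1848 range). Among all genes 21.4% were called lower and 28.1% higher. With relative log expression 9 of the 37 fell and 10 rose, beside 1714 lower and 4502 higher of all 12787 genes.

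Within the 14 embryos the shares spread widely. Embryo 21 of experiment 1 had 1.65% of counts from the 2-cell list, 1.72% from ribosome biogenesis and 3.84% from maternal transcripts, the lowest maternal share of the 14. Embryo 7 of experiment 1 had the lowest 2-cell share (0.536%) and the highest maternal share (11.5%), with 0.411% from ribosome biogenesis, where embryo 2 of experiment 1 was lowest (0.374%). Embryos 13, 21 and 32 of experiment 2 had the 3 highest shares of 2-cell transcripts (1.83%, 1.79% and 1.78%). Embryo 13 of experiment 2 is also the one nearest the GFP limit. Embryo 2 of experiment 1 reached 0.738% almost wholly through genes of the minor wave (0.731%), since its MERVL-linked share was 0.00699% and its Zscan4 share 0.0001%.

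**Figure D3:**
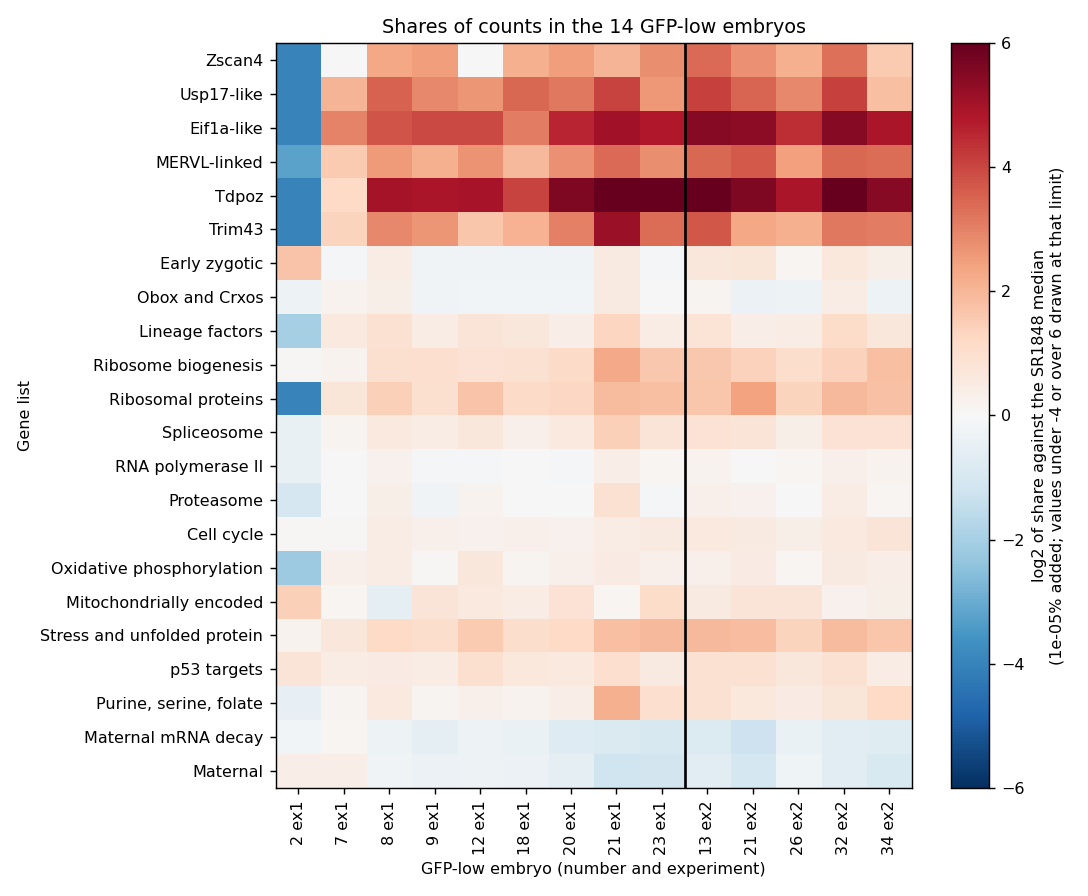
Each column is 1 of the 14 GFP-low embryos, with experiment 1 left of the black line, and each line of squares is 1 gene list; the colour is the log2 of the embryo's share of counts over the SR1848 median (red higher, blue lower). Usp17-like, Eif1a-like, MERVL-linked, Tdpoz and Trim43 shares were above the SR1848 median in every embryo but embryo 2 of experiment 1, and Zscan4 shares were near it in embryos 7 and 12 of experiment 1.

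The genes with the largest changes were not all of these lists. Tet1, which encodes an enzyme that oxidises methylated cytosine, rose most among genes that met the naming rule (ENSMUSG00000047146, chromosome 10, 62804570 to 62908996). It had 121 CPM (0.192 to 581) against 5.65 CPM (0 to 37.1), and 12 of 14 embryos lay above the SR1848 range. The same test gave 4.31 ± 0.39 log2 (SE; adjusted p = 8.99e-13), and its median with DMSO was 156 CPM. H2afz, for the histone variant H2A.Z, had 2099 CPM (11.5 to 3370.2) against 87.4 CPM (39.6 to 1379.7) and 3.68 ± 0.35 log2 (SE; adjusted p = 2.38e-12). Ficd, an enzyme that modifies BiP, had 381 CPM (0 to 1329) against 15.6 CPM (0 to 213), with 10 of 14 above the SR1848 range. Dnajb9, a cochaperone of BiP, rose by 3.75 log2. Psg16, of the pregnancy-specific glycoproteins, had 1574 CPM (11.2 to 5976) against 85.3 CPM (34.4 to 1584), and Prl8a1, of the prolactin family, had 179 CPM (3.58 to 579) against 9.81 CPM (3.84 to 174). Relch (3.60 log2), Fcgr3 (3.75), an Fc receptor gene, the kinase gene Hipk1 (3.55), Cggbp1 (3.53), which binds CGG repeats, and Pabpn1 (3.51), the nuclear poly(A)-binding protein, completed the 12. For each of the 12, at least 2 of the 14 embryos were not above the highest SR1848 embryo, so the groups overlapped.

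Among the 12 largest falls, 1 gene had groups that did not overlap. The share of all genes whose groups did not overlap was not counted. Klhl13, a substrate adaptor of the CUL3 ubiquitin ligase (ENSMUSG00000036782, chromosome X, 23219271 to 23365082), had 28.4 CPM (6.27 to 52.9) against 141 CPM (74.7 to 272). All 14 were below the lowest SR1848 embryo, and the change was -2.27 ± 0.22 log2 (SE; adjusted p = 5.84e-12). Tbc1d19, of the family of Rab GTPase activators, had 17.8 CPM (9.57 to 56.9) against 101 CPM (46.7 to 168), with 13 of 14 below. Il12rb2, a chain of the interleukin 12 receptor, fell most, from 47.4 CPM (9.39 to 79.9) to 1.09 CPM (0 to 39.5), a change of -3.08 ± 0.53 log2 (SE; edgeR adjusted p = 2.84e-06). Psenen, a subunit of gamma-secretase, had 13.7 CPM (2.91 to 86.1) against 87.2 CPM (25.6 to 205), and Wfs1, for wolframin of the endoplasmic reticulum, had 7.30 CPM (0.798 to 65.9) against 50.1 CPM (11.5 to 147). Aldh1a2, which makes retinoic acid (-2.28 log2), Scin, an actin-severing protein (-2.72), and Psg17 (-2.31) fell too. Myadm (-2.38 log2), Pde6d (-2.26), Camkmt (-2.23) and Rsu1 (-2.21) completed the 12. With DMSO these 12 had medians of 0.884 to 72.6 CPM. For Myadm, the highest, and Pde6d the DMSO median was above that with SR1848, so both fell away from the solvent level. For the others it was below that with SR1848.

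**Figure D4:**
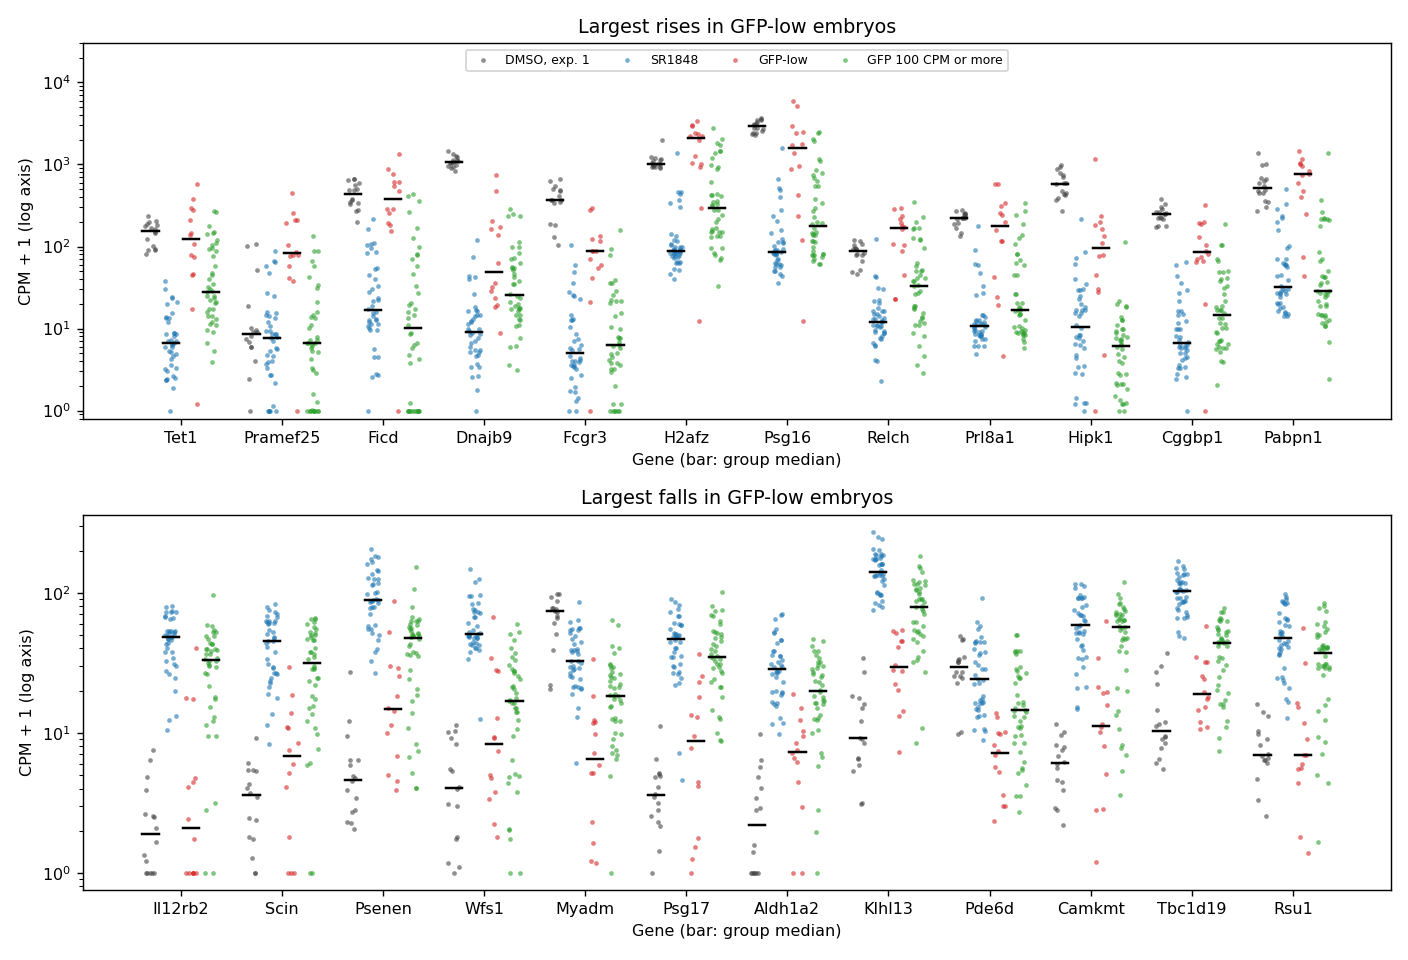
CPM plus 1 (log axis) per embryo for the 12 genes with the largest rises (upper panel) and the 12 with the largest falls (lower panel) in GFP-low embryos against SR1848, 1 point per embryo and a bar at the group median, for DMSO of experiment 1, SR1848, GFP-low and embryos at or above 100 CPM of GFP. For Klhl13 all 14 GFP-low embryos (6.27 to 52.9 CPM) lie below the SR1848 embryos (74.7 to 272 CPM).

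Markers of other cell types were read in the same libraries. Of the cumulus and granulosa markers, Amh, Fshr, Ptx3, Pgr and Nr5a1 were at 0 in all 14 embryos, and 2 of 7 tested, Amhr2 and Ptgs2, rose, a share near the 28.1% of all genes called higher. Amhr2 had 25.1 CPM (0 to 42.5) against 0.0977 CPM (0 to 13.4) and 77.9 CPM (36.6 to 139.6) with DMSO. Of the blood and epithelium markers, Hbb-bs, Hbb-bt and Krt5 were at 0, while Hba-a2 had 89.5 CPM (0 to 223) against 15.4 CPM (2.34 to 85.9). Hba-a1 rose with it, to a median of 57.4 CPM, and Epcam had 73.4 CPM (5.74 to 197) against 26.3 CPM (7.35 to 105). Embryos above the GFP limit had medians of 140.7 CPM for Hba-a2, 51.7 for Hba-a1 and 22.1 for Epcam. High levels of both globin mRNAs were thus not particular to GFP-low embryos. Of the spermatid markers Hspa1l and Ldhc rose and Gapdhs fell, all with GFP-low medians under 6 CPM, and Smcp was at 0. The summed share of each of these lists had a median in GFP-low embryos of 0.00522% (0.000940 to 0.00777), 0.0233% (0.000570 to 0.0549) and 0.00169% (0 to 0.00335), against 0.00218% (0.000230 to 0.0253), 0.00520% (0.00192 to 0.0210) and 0.000790% (8e-05 to 0.00213) with SR1848. Their part in the results was not tested.

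The rises were read in each experiment alone. In experiment 1 alone, with 9 GFP-low embryos, 16.5% of 11592 genes were called higher and 8.18% lower, and in experiment 2 alone, with 5, 22.4% of 13830 were higher and 19.4% lower. Tet1 rose by 3.64 log2 in experiment 1 and 5.06 in experiment 2, Gnl3 by 2.05 and 2.57, and Usp17lc by 3.17 and 3.00. Klhl13 stood at -2.09 log2 in experiment 1 and -2.51 in experiment 2. The difference of the effect between experiments passed for 1 gene, Olfr1369-ps1, an olfactory receptor pseudogene (7.09 log2, edgeR adjusted p = 0.0434), and for 1137 at an unadjusted p under 0.05. Without embryo 2 of experiment 1 it passed for none, and for 864 unadjusted. The share of 2-cell transcripts was 0.840% (0.536 to 1.65) in experiment 1 and 1.78% (0.939 to 1.83) in experiment 2.

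Genes that SR1848 lowered were looked up in other embryos. In experiment 1, SR1848 against DMSO called 43.6% of 11778 genes lower and 37.8% higher. Of the lower genes 4860 were tested in experiment 2, whose embryos are all different, and 2129 (43.8%) were higher in its GFP-low embryos than with SR1848, while 236 (4.86%) were lower, with a median of 0.94 log2. Of the 4448 genes that SR1848 raised, 2031 (45.7%) were lower in those GFP-low embryos and 188 (4.23%) higher, with a median of −0.65. Of 2182 genes that SR1848 did not change past the threshold, 15.7% were higher and 12.7% lower, with a median of −0.10.

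Within their own label, where GFP set the split and GFP, Nr5a2 and Hist2h2be are described above without a test, the GFP-low embryos had more of the 2-cell and ribosome transcripts than embryos above the GFP limit, but the experiments differed in how much could be called. Over both experiments 17.5% of 13873 genes were higher in GFP-low embryos and 13.3% lower, and 19.4% and 16.2% without embryo 2 of experiment 1. Of the 2-cell list 39 of 78 were higher and 1 was lower (median 1.39 log2). In experiment 2 this was 43 of 81 higher and 2 lower, against 14.8% and 15.4% of all genes. In experiment 1 it was 3 of 75 higher and 1 lower, against 2.36% and 1.25% of all genes. Leaving embryo 2 out of experiment 1 raised the genes called there from 454 to 896, of which 560 were higher, and the 2-cell list then had 4 of 78 higher and 1 lower. The difference between the experiments was not tested.

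The families parted again in this comparison. Over both experiments Tdpoz (4 of 4), Trim43 (3 of 3) and MERVL-linked genes (20 of 30) were higher in GFP-low embryos. Zscan4 (0 of 6) and Eif1a-like genes (0 of 9) gave no call, although 1 Eif1a-like gene was higher without embryo 2 of experiment 1. Of all genes 17.5% were higher and 13.3% lower. Experiment 1 alone called few members of the 2-cell list higher, as given above. The Zscan4 share had medians of 0.151% above the GFP limit in experiment 1 and 0.00184% in experiment 2, against 0.0738% and 0.109% in GFP-low embryos. The Usp17-like share had a median of 0.101% (0 to 0.213) in GFP-low embryos and 0.00120% (6e-05 to 0.174) above the limit. Above the limit Zscan4d ran from 0 to 934 CPM, a wider range than in the GFP-low embryos. Hipk1, with 4.11 ± 0.53 log2 (SE; edgeR adjusted p = 3.66e-08), and Pabpn1, with 3.04 ± 0.48 log2 (SE; edgeR adjusted p = 2.65e-06), were among the named genes higher in GFP-low embryos. Of ribosome biogenesis 75 of 109 were higher and none lower, and of ribosomal proteins 72 of 82 and 1. Psma6, of the proteasome core, had 46.3 CPM (0 to 175) in GFP-low embryos against 6.57 CPM (0.519 to 32.6) (2.64 log2). Of maternal transcripts 9 of 79 were higher and 7 lower, or 8 and 10 without embryo 2 of experiment 1, and both groups had 6.41% of counts from them as medians. No mitochondrially encoded mRNA of 13 was called, and 1 was lower without that embryo. The epithelial keratins Krt18 (-1.05 log2) and Krt8 (-2.32 log2) and Sox17, an endoderm factor (-2.77 log2), were lower in GFP-low embryos than above the limit.

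Against DMSO of experiment 1, the GFP-low embryos of that experiment passed the solvent level for some 2-cell families and stayed below it for others. Of 12843 genes 30.8% were higher and 30.1% lower, and without embryo 2 these were 30.5% and 32.5% of 13133. Which direction had more calls depends on the scaling, with 3954 higher and 3869 lower as reported, 3410 and 4278 with relative log expression and 3308 and 4155 with total counts. The Zscan4, Usp17-like, Eif1a-like and Trim43 counts that follow were the same under both scalings. All 5 tested Zscan4 genes, all 5 Usp17-like genes and 6 of 7 Eif1a-like genes were higher than with DMSO. SR1848 alone had not clearly lowered these families. In experiment 1 its median shares were 0.0163% for Zscan4, 0.0111% for Usp17-like and 0.00470% for Eif1a-like genes. With DMSO they were 0.0104%, 0.00859% and 0.00896%. For Zscan4, 8 of the 16 SR1848 embryos of experiment 1 were above the highest DMSO embryo. Zscan4d stood at 2.91 log2, Usp17lc at 4.50 and Duxf3 at 3.73. All 3 Trim43 genes were lower, with Trim43b at -3.87 ± 0.52 log2 (SE; adjusted p = 6.03e-07), as were Obox6 (-2.06 log2), Crxos (-2.62), Dppa4 (-3.72) and Klf5 (-1.70). Tet1 (-0.65 log2, edgeR adjusted p = 0.194), H2afz (0.58, 0.19) and Prl8a1 (0.06, 0.914) did not pass. Of ribosome biogenesis 95 of 110 were lower and 4 higher, and all 9 GFP-low embryos of experiment 1 were below the lowest DMSO embryo in its share (2.37% median with DMSO). Of maternal transcripts 62 of 79 were higher and 5 lower. Of the proteasome 32 of 40 were lower and none higher, and all 13 mitochondrially encoded mRNAs were higher.

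**Figure D5:**
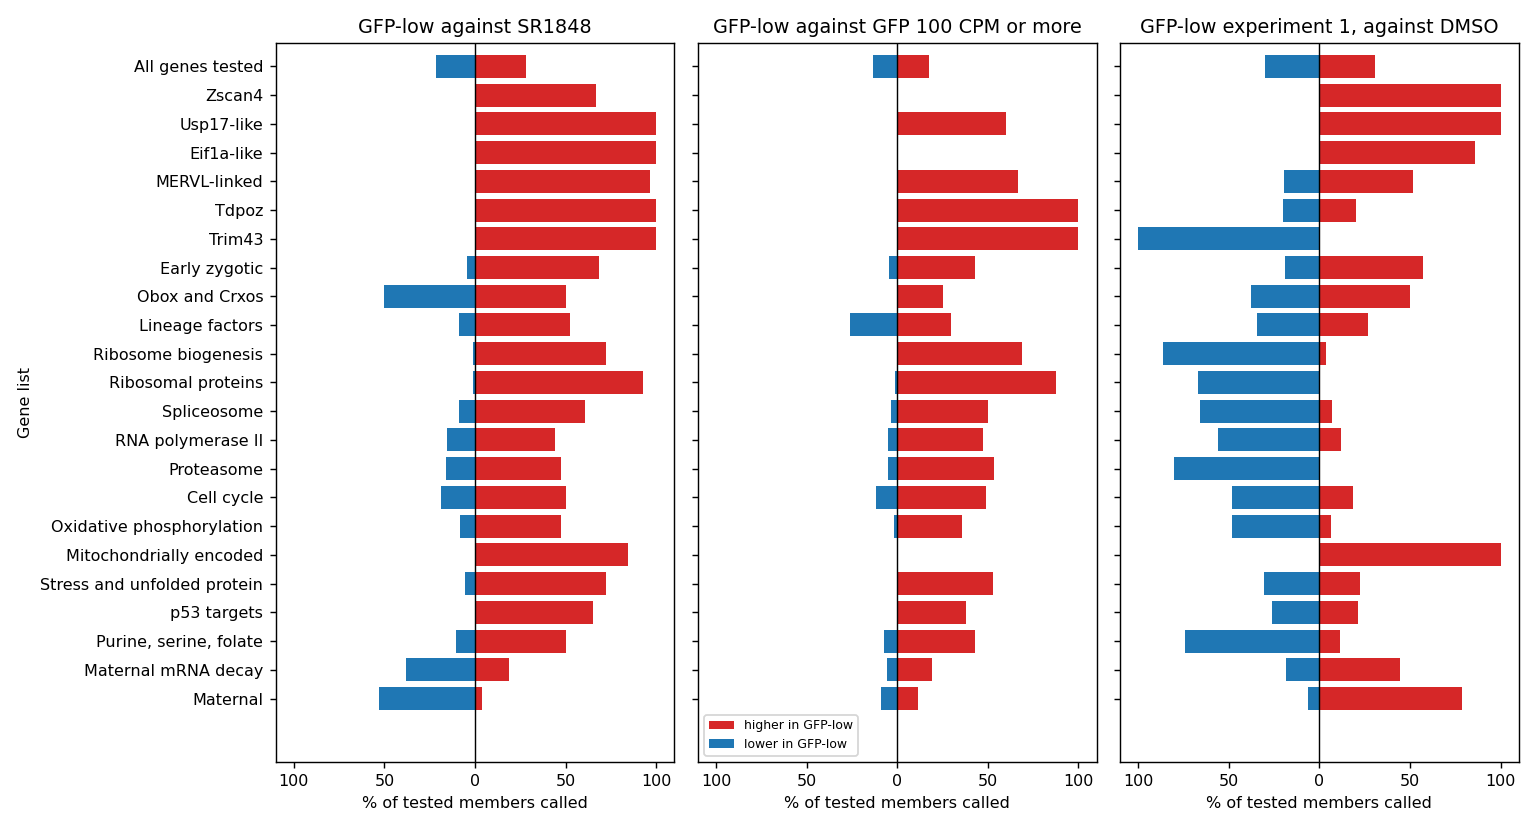
Percent of tested members of each gene list called higher (red, right) or lower (blue, left) in GFP-low embryos by edgeR's quasi-likelihood test, against SR1848, against embryos of the same label at or above 100 CPM of GFP and, for experiment 1, against DMSO; the top bar is all genes tested. Against SR1848 28.1% of all genes were higher and 21.4% lower, and all 8 Eif1a-like genes were higher; against DMSO all 3 Trim43 genes and 95 of 110 genes of ribosome biogenesis were lower.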

How the data were processed

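Polyadenylated RNA of 137 single embryos was measured. Per the submitters' processing notes, reads were handled with bcl2fastq, Trim Galore 0.6.2, kallisto 0.46.1, R 3.5.1 and DESeq2 1.32.0. They name mm10 and also hg19, with no role for either. Expected counts (the estimated counts of kallisto) were deposited by the authors for 119358 entries; 26.3% of the values are not whole numbers (tolerance 1e-9). The log2 fold changes and p-values in the authors' deposited table were not used; that table gave gene names only. Columns were matched to samples by prefix, number and experiment.

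Gene names came from GENCODE M21 on GRCm38 (116682 entries) and the authors' table (892). The 1779 unpaired entries held 0.656% of counts, and 5 entries for GFP, an Nr5a2 gene sequence and B1 and B2 SINEs held 0.158%. Counts were summed over 36097 genes and rounded. CPM is an entry's counts over the library's total, times 1000000 (totals 100883 to 9317721, median 4694340). Intervals and SEs cover the spread between embryos and counting error, and reads carry no molecular identifiers or strand. No columns held identical values. The 7 libraries with low totals or few genes, and 16 that go against their labels, were left out.

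Groups were compared with edgeR 4.0.16 in R 4.3.3 (quasi-likelihood test, TMM, filterByExpr, experiment as a term, Benjamini-Hochberg adjustment over all tested genes at 0.05), tested on simulated data. DESeq2 1.42.0, other scalings, filters, GFP limits and left-out libraries were alternatives. The members and lists were chosen with earlier results of these data known. Lists are described by counts and medians. Named genes are the 12 largest changes in each direction past the threshold (mean log2 CPM of at least 3, median of at least 8 CPM in the higher group, same sign in both experiments, no predicted or Rik symbol) and the 3 with the smallest p in each list. Genes that make up small counts or exceptions (among them Hist2h2be, Duxf3, Dppa2, Zfp352, Tcstv1, Nanog, Klf5, Krt8, Krt18, Sox17 and Olfr1369-ps1) were named after their values were seen.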

Additional observations from a re-analysis of the deposited data

Results flagged for a closer look

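Within the GFP-low embryos of 1 experiment, 14 of 68 values tested had a single embryo far from the others by Dixon's ratio, where chance gives about 1 in 20. The values are of the same embryos and some lists hold others, so they are not independent. Most flags were of embryos 2 and 21 of experiment 1. Embryo 21 of experiment 1 was highest in its shares of counts from the Tdpoz family (0.0722%), the Trim43 family (0.0545%), the spliceosome (0.543%), purine, serine and folate synthesis (0.685%) and orphan receptors (0.0805%). Embryo 2 of experiment 1 was highest for early zygotic genes (0.731%), and lowest for lineage factors (0.0412%), oxidative phosphorylation (0.0525%), sensing of foreign RNA (0.00500%), blood and epithelium markers (0.000574%) and detected genes (8356). Embryo 26 of experiment 2 was lowest for the spliceosome (0.256%). Embryo 34 of experiment 2 was highest in the Nr5a2 gene sequence entry (306 CPM), and embryo 23 of experiment 1 in the B2 SINE entry (144 CPM).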

How the results depend on the processing

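Against SR1848, 6339 genes were called, and leaving out each GFP-low embryo in turn gave 5734 to 6905, with 549 to 603 list members (581 as reported) and 65 to 68 genes of the 2-cell list higher. Counts of single lists were less steady. Leaving out 1 GFP-low embryo moved 8 list counts by over 1.5 times for embryo 13 of experiment 2, 7 each for embryo 21 of experiment 1 and embryo 32 of experiment 2, 5 for embryo 21 of experiment 2, 4 for embryo 7 of experiment 1, 3 each for embryo 2 of experiment 1 and embryo 26 of experiment 2, and 1 or 2 for the others. Of higher counts these took in only those of the granulosa and spermatid markers (2 to 1 each); the rest were counts of lower genes, such as 11 to 7 in the cell cycle list and 2 to 0 or 1 in the stress list. DESeq2 and the GFP limit of 20 CPM moved 10 list counts each, relative log expression 15, scaling to the maternal list 25 and experiment 1 alone 31. Under relative log expression the count of lower genes moved in 12 lists. Among them were the lineage, cell cycle, oxidative phosphorylation, proteasome, spliceosome and RNA polymerase II lists. With no filter on low counts 10341 genes were called. Experiment 1 alone, with fewer embryos, gave 2866 genes and 366 list members, and 3948 genes without its embryo 2. Against embryos above the GFP limit, experiment 1 alone gave 454 genes, and 896 without embryo 2, of 4274 over both experiments. The median 2-cell share was 1.78% in experiment 2 alone, against 1.04%. Higher calls were 56.7% of all calls as reported, 72.4% with relative log expression, 88.9% scaled to the maternal list and 68.4% with DESeq2. Against DMSO the calls were 3449 higher and 4720 lower with DESeq2, and the low libraries put back gave 5612 genes, of 7823.

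The labels do not say whether replicate numbers pair embryos. Over 6 numbers shared by a GFP-low and an SR1848 embryo of one experiment, correlations ran from −0.0675 to 0.132, and 1 was over 0.1. So few correlations cannot exclude pairing. With the replicate number as a block, which leaves few degrees of freedom, edgeR called 0 genes (1421 at an unadjusted p under 0.05), 0 list members and 0 genes of the 2-cell list, and Zscan4a reversed to −0.15 log2. Against DMSO the block gave 4332 genes, 1457 higher and 2875 lower. Against the embryos above the GFP limit no block was possible, because both groups share a label and its numbers do not repeat within an experiment. The difference between experiments passed for 1 gene, and for 0 (864 unadjusted) without embryo 2 of experiment 1. With totals of 3759280 to 7888072 counts, the filter leaves genes near 0 in most embryos outside the tests.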
